A study of Homo sapiens with 18 samples.

Results

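The genes described here are TXNIP and its closest relatives in glucose-regulated transcription: the α-arrestins TXNIP, ARRDC4 and ARRDC3, the glucose-sensing transcription factors MLXIP (MondoA) and MLXIPL (ChREBP), and their partner MLX. These 6 genes, of 61541 gene rows in all, were taken by their Ensembl identifiers from 2 tables of raw read counts. They were chosen by values already seen in these data, namely their levels per library and fold changes, and above all because 1 library treated for 12 days differed from its replicates. Their own levels and fold changes are therefore given as a description, with standard errors and without p-values.

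A549 is an established human non-small cell lung carcinoma line with a wild-type (WT) label for genotype, grown in high-glucose DMEM with 10% fetal bovine serum. It was sequenced untreated or after sodium propionate (SP), the salt of a short-chain fatty acid, at 5 mM. The table of days held Control_3D (untreated, 3 days), SP_3D (SP for 3 days) and SP_12D (SP for 12 days), and the table of hours held Control_24H (untreated, 24 h), SP_3H (SP for 3 h) and SP_24H (SP for 24 h), with 3 libraries (R1, R2 and R3) in each group. SP_3H was set against the 24 h control and SP_12D against the 3 day control, so the length of culture cannot be told apart from SP in these, and comparisons within a table share their control libraries.

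Libraries held 14187401 to 43765330 counted reads. All 8 A549 and lung epithelial markers were detected in every library, at 5.57 CPM or more (CPM being counts scaled to library size with TMM factors), while the leukocyte genes PTPRC and CD3E reached at most 2 reads. The leukocyte and fibroblast lists nevertheless moved with SP. Their 4 markers each summed to 16.2 to 17.8 and 1.18 to 1.82 CPM in Control_3D, against 34.3 to 37.4 and 4.75 to 5.55 CPM in SP_3D, carried by CD14 and LUM. In SP_12D they summed to 13.0 to 26.1 and 6.39 to 10.6 CPM, and in hours the leukocyte sum was 2.95 to 3.91 CPM in Control_24H and 14.2 to 16.6 CPM in SP_24H. The fibroblast sum was 0.491 to 1.16 CPM in Control_24H and 1.62 to 2.02 CPM in SP_24H. Endothelial markers went the other way in days. They summed to 2.44 to 2.88 CPM in Control_3D, 1.83 to 2.33 CPM in SP_3D and 1.35 to 1.91 CPM in SP_12D. The part of these lists in the results was not tested. SP_12D R3 stood apart from its replicates: 5.47% and 6.52% of genes differed by more than 2-fold between it and R1 or R2, against 1.61% to 2.64% for other replicate pairs of that table. In the table of hours, Control_24H R3 stood apart, with 15.3% of genes beyond that limit against R1 and 10.0% against R2. The libraries of hours are described in the study as biological replicates. For those of days the labels do not say whether they were separate cultures, so their standard errors may cover technical spread alone.

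MondoA and ChREBP are basic helix-loop-helix leucine zipper factors that move to the nucleus and activate genes when glucose 6-phosphate accumulates, and both need MLX to bind DNA. Their binding site, the carbohydrate response element, holds a pair of E-box-like half-sites a fixed distance apart, and TXNIP and ARRDC4 are the best known targets of MondoA. TXNIP binds and inhibits thioredoxin and also binds glucose transporters. Its transcript is widely used as a readout of glucose sensing in cells.

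The promoters of TXNIP and ARRDC4 are shown because these are the best known targets of MondoA, and that of MLX because it holds an E-box. The paired motif was found in the TXNIP window shown and in no other window of the members. Each window is RefSeq sequence of build GRCh38.p14, covering 250 bases before to 50 bases after the annotated start, in the direction of the gene. The TXNIP window lies at chr1:145996530-145996829 on the minus strand, the ARRDC4 window at chr15:97960453-97960752 on the plus strand and the MLX window at chr17:42566850-42567149 on the plus strand. In TXNIP the capitals mark both half-sites of the pair, in ARRDC4 and MLX every single half-site.
TXNIP: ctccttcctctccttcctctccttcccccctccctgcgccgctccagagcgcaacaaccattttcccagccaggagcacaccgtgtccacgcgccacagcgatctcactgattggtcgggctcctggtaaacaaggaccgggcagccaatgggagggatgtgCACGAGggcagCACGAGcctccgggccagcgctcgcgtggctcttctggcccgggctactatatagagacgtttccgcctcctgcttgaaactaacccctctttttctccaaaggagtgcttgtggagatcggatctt
ARRDC4: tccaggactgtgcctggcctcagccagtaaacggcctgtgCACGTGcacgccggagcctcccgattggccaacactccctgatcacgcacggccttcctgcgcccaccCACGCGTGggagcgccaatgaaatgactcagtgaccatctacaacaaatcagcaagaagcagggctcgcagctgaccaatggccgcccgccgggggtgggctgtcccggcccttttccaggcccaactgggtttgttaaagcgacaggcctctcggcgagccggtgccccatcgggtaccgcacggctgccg
MLX: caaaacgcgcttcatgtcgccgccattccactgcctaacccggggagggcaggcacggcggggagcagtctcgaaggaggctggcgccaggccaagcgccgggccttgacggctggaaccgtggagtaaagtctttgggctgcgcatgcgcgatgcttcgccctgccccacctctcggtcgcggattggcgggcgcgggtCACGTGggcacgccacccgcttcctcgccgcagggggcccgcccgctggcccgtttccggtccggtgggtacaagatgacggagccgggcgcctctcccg

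The motif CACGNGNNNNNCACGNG, searched on both strands, stood once in the TXNIP window, with its first base at position -88 relative to the start. It was present in 20 of 35116 windows of this length, or 0.0570%. The half-site CACGNG alone stood at 4 places in the TXNIP window, including both in the pair, and 30.5% of all windows held it. In ARRDC4 it stood at 3 places, of which the one at position -210 was the E-box CACGTG and the other 2 overlapped each other. The MLX window held 1 CACGTG, at position -50, a motif found in 7.26% of all windows. MLXIP, MLXIPL, the other TXNIP window and the first of 2 ARRDC3 windows held no half-site within these bases, and the other ARRDC3 window, not shown, held 1, at position -193. These matches describe letters in a fixed window and are not binding measurements.

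TXNIP (ENSG00000265972, chr1:145992435-145996579, minus strand, 3604 bases of exon in GENCODE GRCh38) encodes thioredoxin-interacting protein. Its level in the untreated libraries of days was 31.5, 35.5 and 29.1 CPM in Control_3D R1, R2 and R3. In SP_3D it was 36.0, 37.5 and 33.9 CPM, which overlapped the control range, and the fitted log2 fold change was 0.16 (SE 0.75, from a spread shared with SP_12D). In SP_12D it was 4.81 CPM in R1, 2.74 CPM in R2 and 32.2 CPM in R3. R1 and R2, with 76 and 55 reads, were thus far below every other library of the table, while R3, with 727 reads, lay inside the range of the untreated cells. In bulk RNA, fewer cells with the transcript and less transcript per cell cannot be told apart. The fitted log2 fold change at 12 days was -1.23 (SE 0.79) with all libraries and -3.14 without SP_12D R3, so this single library sets the size of the difference.

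At 3 and 24 hours TXNIP was close to the limit of detection. Control_24H R1, R2 and R3 held 0, 6 and 3 reads, where 0 reads in R1 allow up to 0.159 CPM (3 reads in that library, counting error only). SP_3H held 3, 22 and 11 reads, or 0.212, 0.713 and 0.448 CPM. SP_24H held 4, 59 and 17 reads, or 0.162, 1.32 and 0.574 CPM. The groups overlapped in both comparisons, because R1 of each SP group lay below Control_24H R2 at 0.317 CPM. By replicate number, which paired Control_24H with SP_24H, the SP library was higher in 3 of 3 pairs at 24 h. Summed over each group, 36 reads in SP_3H stood against 9 in Control_24H, a ratio per counted read of 3.82 with an interval of 1.80 to 9.01 (95%, exact, counting error only). For SP_24H it was 80 against 9 reads, a ratio of 5.96 (2.99 to 13.5). Both intervals leave out the spread between libraries, and 59 of the 80 reads came from R2. The fitted log2 fold changes were 1.82 (SE 1.00) and 2.38 (SE 0.91), with ranges of 1.32 to 2.90 and 1.43 to 3.45 when single libraries were left out, the highest without Control_24H R2 in both. The lowest came without Control_24H R1 at 3 h and without SP_24H R2 at 24 h. No control library and 4 SP libraries were above the low-count limit of 0.403 CPM, so TXNIP entered this table's fit through the SP libraries only.

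**Figure D1:**
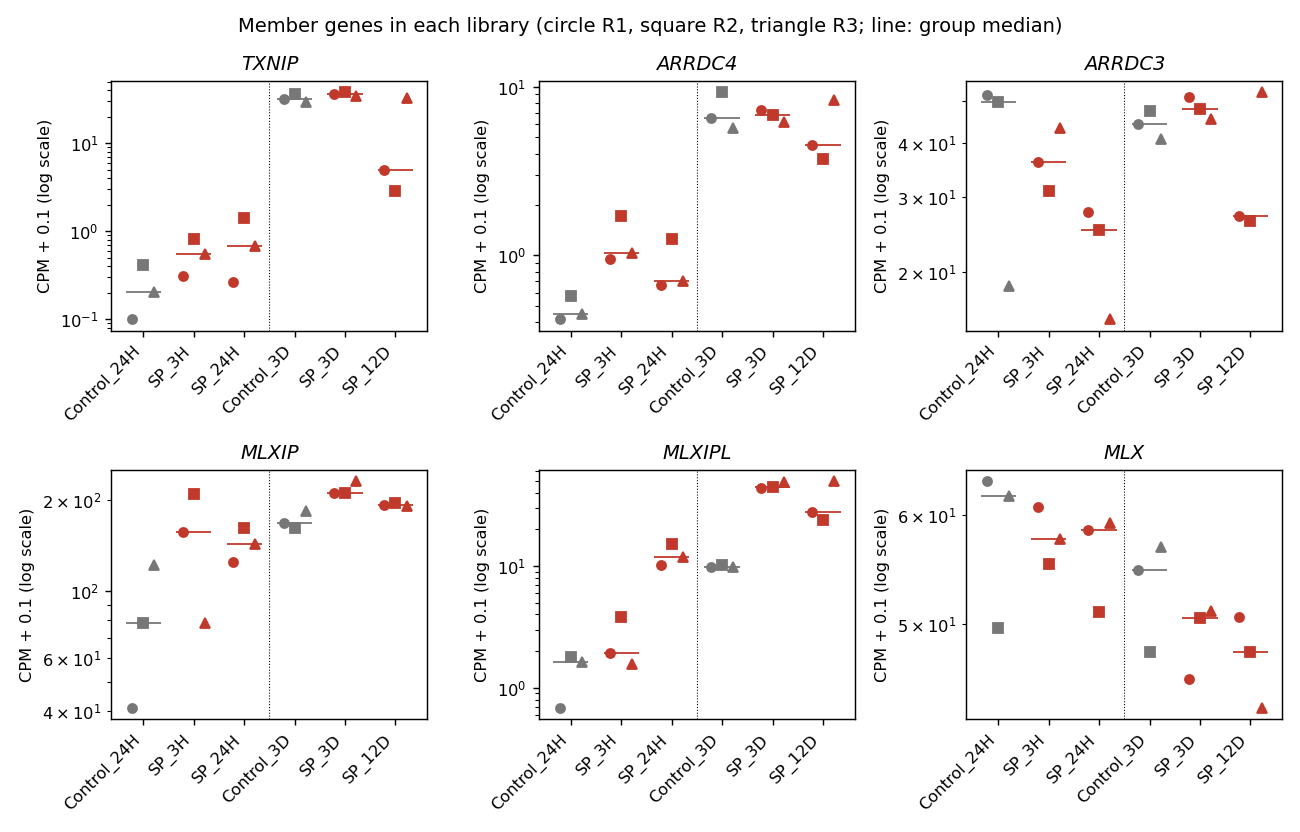
Level of each member in all 18 libraries, as CPM plus 0.1 on a logarithmic axis whose range differs between panels, with grey for untreated and red for SP libraries, a symbol per replicate and a line at each group median. The dotted line separates the table of hours from the table of days. TXNIP in SP_12D R3 (32.2 CPM) sits beside the Control_3D and SP_3D libraries, and R1 and R2 (4.81 and 2.74 CPM) sit far below them.

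ARRDC4 (ENSG00000140450, chr15:97960703-97973833, plus strand) is the closest paralog of TXNIP. In days its levels were 6.41, 9.15 and 5.61 CPM in Control_3D and 7.19, 6.70 and 6.10 CPM in SP_3D, with a log2 fold change of -0.08 (SE 0.27). SP_12D R1 and R2, at 4.43 and 3.64 CPM, were the lowest of the table, and R3 at 8.29 CPM was second only to Control_3D R2. The log2 fold change at 12 days was -0.35 (SE 0.27), and -0.83 without R3.

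In hours ARRDC4 held 6, 9 and 10 reads in Control_24H, or 0.318, 0.476 and 0.351 CPM. SP_3H held 12, 50 and 23 reads, or 0.847, 1.62 and 0.937 CPM, and SP_24H held 14, 51 and 18 reads, or 0.566, 1.14 and 0.608 CPM. All 6 SP libraries were above all 3 control libraries. The log2 fold change was 1.62 (SE 0.42) at 3 h and 1.07 (SE 0.42) at 24 h. In summed reads, 85 against 25 gave a ratio of 3.24 (2.06 to 5.29) at 3 h, and 83 against 25 gave 2.22 (1.41 to 3.63) at 24 h. These intervals hold counting error only, not the spread between libraries. R2 of each SP group was its highest library, and without it the log2 fold changes were 1.24 and 0.63. Only 1 control library, against all 6 SP libraries, passed the low-count limit.

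ARRDC3 (ENSG00000113369, chr5:91368631-91383317, minus strand) is an α-arrestin that works as an adaptor for ubiquitin ligases at the cell surface. It overlaps its antisense gene ARRDC3-AS1 by 145 bases, and reads there cannot be told apart without strand. It was at 44.2, 47.3 and 40.8 CPM in Control_3D and at 51.1, 47.9 and 45.4 CPM in SP_3D. SP_12D gave 27.0, 26.2 and 52.2 CPM, so R1 and R2 were the lowest and R3 the highest of the 9 libraries. Its log2 fold change at 12 days was -0.32 with all libraries and -0.75 without R3.
In hours Control_24H was at 51.6, 49.6 and 18.5 CPM in R1, R2 and R3. SP_3H ranged from 30.8 to 43.1 CPM, and SP_24H was at 27.5, 25.0 and 15.5 CPM. SP_24H was thus below Control_24H in 3 of 3 pairs of the same replicate number, which deviated together in these groups, and the log2 fold change of -0.81 (SE 0.37) was -0.74 (SE 0.15) with the replicate block in a fit of both groups. It was -0.44 with each library's trend in GC content and exon length removed. Without Control_24H R3 the log2 fold change at 24 h moved from -0.81 to -1.16, and at 3 h from -0.12 to -0.47, while at 3 h it was 0.10 without Control_24H R1.

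MLXIP (ENSG00000175727, chr12:122078756-122147344, plus strand) encodes MondoA. In days it was at 168, 162 and 184 CPM in Control_3D, at 210, 210 and 231 CPM in SP_3D and at 192, 195 and 190 CPM in SP_12D, so every SP library was above every control. The log2 fold changes were 0.34 (SE 0.08) and 0.17 (SE 0.08). They were -0.0029 and -0.026 once the trend of each library with GC content and exon length was removed, so the higher level depends on that choice. In hours the spread within groups was wide: Control_24H was at 40.9, 77.9 and 122 CPM, SP_3H at 157, 209 and 77.9 CPM and SP_24H at 125, 161 and 143 CPM. The log2 fold changes of 0.88 at 3 h and 0.83 at 24 h ranged from 0.54 to 1.32 and from 0.49 to 1.26 when single libraries were left out. At 24 h every SP library was above every control, and the log2 fold change was 0.95 (SE 0.27) with the replicate block. With the trend in GC content and exon length removed it was 0.37 at 24 h, or 0.43 with the block, and 0.66 at 3 h.

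MLXIPL (ENSG00000009950, chr7:73593194-73624543, minus strand) encodes ChREBP, the paralog of MondoA known from liver and adipose tissue, where it drives glycolytic and lipogenic genes. Its fitted log2 fold change with all libraries was the largest of the 6 members at 24 h, 3 days and 12 days, but not at 3 h. Control_3D was at 9.75, 10.0 and 9.69 CPM, against 43.4, 44.6 and 48.5 CPM in SP_3D, a log2 fold change of 2.21 (SE 0.26). SP_12D gave 27.7 and 23.8 CPM in R1 and R2 and 49.8 CPM in R3. All 3 were above the controls, R1 and R2 were below every SP_3D library and R3 was above them all. The log2 fold change at 12 days was 1.79 (SE 0.26), and 1.37 without R3.

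In hours MLXIPL held 11, 32 and 44 reads in Control_24H, or 0.582, 1.69 and 1.54 CPM. SP_3H was at 1.83, 3.73 and 1.47 CPM and overlapped the control, with a log2 fold change of 0.90 that was 0.34 without SP_3H R2. SP_24H reached 10.1, 15.1 and 11.8 CPM, above every control and SP_3H library. Its log2 fold change was 3.26 (SE 0.42). In summed reads, 1273 against 87 gave a ratio of 9.80 (7.89 to 12.3, counting error only, without the spread between libraries). With the trend in GC content and exon length removed the values were 2.61 at 24 h and 1.73 at 3 days, so part of the size, but not the direction, moved with that choice.

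MLX (ENSG00000108788, chr17:42567072-42573239, plus strand), the shared partner, varied least. It was between 43.3 and 63.4 CPM in all 18 libraries, with log2 fold changes of -0.01 at 3 h, -0.05 at 24 h, -0.11 at 3 days and -0.17 at 12 days. The groups overlapped in every comparison. MLX shares 775 bases with PSMC3IP on the opposite strand and 1 annotated pseudogene carries its name, so its counts are less certain than those of TXNIP, ARRDC4, MLXIP and MLXIPL, which overlap no annotated exon of another gene.

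**Figure D2:**
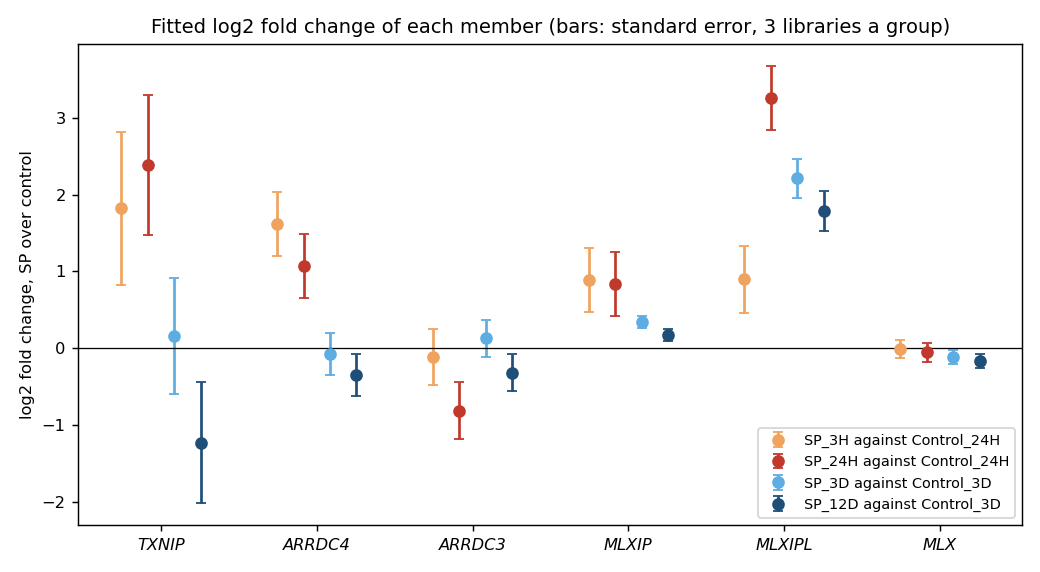
Fitted log2 fold change of SP over control for each member, with points at the estimate and bars of 1 standard error, coloured by comparison. MLXIPL was highest at 24 h (3.26), MLX stayed near 0, and TXNIP had the widest bars (SE 0.75 to 1.00).

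At an adjusted p under 0.05 in the edgeR quasi-likelihood fit, ARRDC4 was the 1 member of 6 past the threshold at 3 h, where 11.5% of the 17377 genes tested passed. At 24 h it was MLXIPL alone, with 28.8% of genes passing. At 3 days it was MLXIP and MLXIPL, with 48.6% of 17775 genes passing, and at 12 days MLXIPL alone, with 49.8%. All 6 passed the low-count limit in both tables, TXNIP and ARRDC4 in hours only as described above. Libraries did not overlap for ARRDC4 at 3 h (27.3% of all genes), for ARRDC4, MLXIP and MLXIPL at 24 h (44.4%), and for MLXIP and MLXIPL at 3 days (61.2%) and 12 days (55.9%). As the members were chosen with these comparisons known, nothing is read from these counts.

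Per length of exon, the order of the members differed between tables. In Control_3D the median RPKM (reads scaled to exon length and library size) was 12.8 for MLX, 12.1 for MLXIP, 8.86 for ARRDC3, 8.74 for TXNIP, 2.03 for MLXIPL and 1.58 for ARRDC4. The ranges of MLX and MLXIP, of ARRDC3 and TXNIP, and of MLXIPL and ARRDC4 overlapped, so these neighbours did not differ beyond their spread. In SP_3D, MLXIPL had a median of 9.26 RPKM, below those of TXNIP (10.00 RPKM) and ARRDC3 (9.61 RPKM). Its range of 9.02 to 10.1 RPKM overlapped those of TXNIP (9.39 to 10.4) and ARRDC3 (9.11 to 10.2). In Control_24H, TXNIP was last at 0.0292 RPKM, after ARRDC4 at 0.0863 and MLXIPL at 0.320, with the ranges of TXNIP and ARRDC4 overlapping.

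The members that were low in hours were those that differed most between the untreated groups of the tables. TXNIP averaged 32.0 CPM in Control_3D and 0.141 CPM in Control_24H, a log2 difference of 7.51, the highest of 16654 genes in both fits, followed by EGR1 at 6.41 and SLC51B at 5.02. ARRDC4 differed by 3.95 (place 22 from the highest), MLXIPL by 3.01 (place 99) and MLXIP by 1.23 (place 2115). ARRDC3 and MLX differed by 0.28 and -0.13. The tables were counted and scaled separately, so time in culture and table cannot be told apart, and no test was made.

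SP_12D R3 was compared with R1 and R2 in the same way, and the members that differed were only partly the same. On the log2 scale it was above the mean of R1 and R2 by 3.11 for TXNIP, place 4 of 17775 genes from the highest, behind BPIFB1, SOSTDC1 and C2. ARRDC4 was higher by 1.02, ARRDC3 by 0.97 and MLXIPL by 0.95, while MLXIP and MLX differed by -0.02 and -0.18. The size of the difference exceeded 1.01 in 5% of genes. TXNIP was past that mark, and ARRDC4, ARRDC3 and MLXIPL lay close to it on either side. As the members were chosen because this library differed, nothing is read from these places. R3 was also the deepest library of its table, with 21992046 reads against 15425281 to 20722138 in the others, and the part of depth was not tested.

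**Figure D3:**
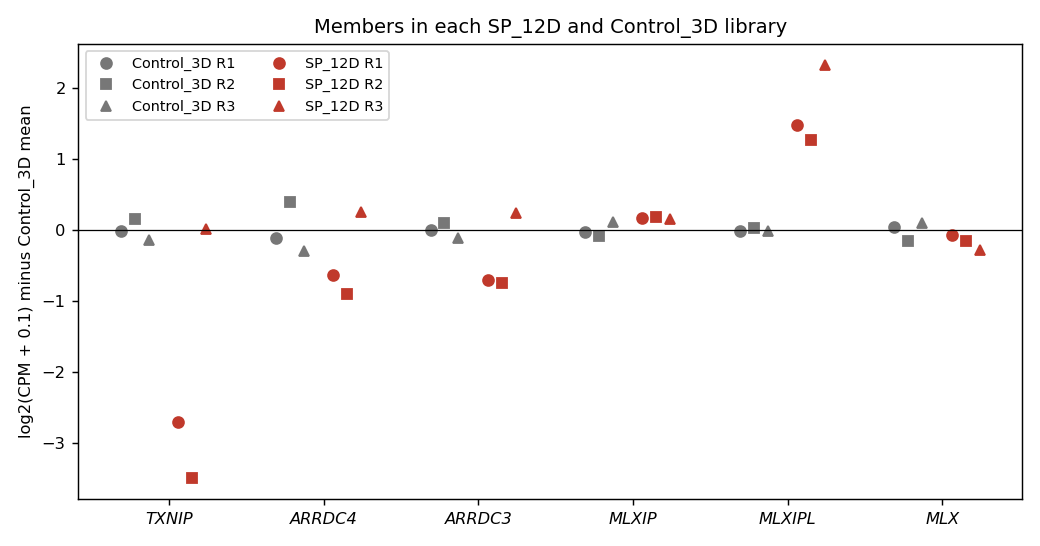
Difference of log2(CPM + 0.1) from the Control_3D mean for each member, in the Control_3D libraries (grey) and the SP_12D libraries (red), with a symbol per replicate. For TXNIP, ARRDC4, ARRDC3 and MLXIPL the R3 triangle stands apart from R1 and R2, above them by 3.11, 1.02, 0.97 and 0.95. For MLXIP and MLX the SP_12D libraries lie together.

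Across the 9 libraries of days, log2 CPM of TXNIP correlated with ARRDC3 (r = 0.96, rho = 0.82) and ARRDC4 (r = 0.87, rho = 0.77). For MLXIP, MLXIPL and MLX, r was -0.0044, 0.0040 and 0.05, and rho was 0.28, 0.42 and -0.35. Without SP_12D R1 and R2, r was 0.62 for ARRDC3, 0.45 for ARRDC4, 0.34 for MLXIP, 0.51 for MLXIPL and -0.51 for MLX, so the high values and those near 0 alike rest on these libraries. Across the 9 libraries of hours, r with TXNIP was 0.81 for ARRDC4, 0.69 for MLXIPL, 0.66 for MLXIP, -0.32 for ARRDC3 and -0.70 for MLX (rho 0.87, 0.67, 0.67, -0.33 and -0.73). Without the 2 libraries farthest from the TXNIP median, Control_24H R1 and SP_24H R2, these r were 0.72, 0.24, 0.21, 0.10 and -0.39. These are descriptions over libraries that fall into groups of treatment, with few reads in hours. Among 12581 genes, the patterns most like TXNIP in both tables at once, by the lower of the 2 correlations, were FBXL20 (0.86), FOXN3 (0.86), NFKBIZ (0.86), KIF12 (0.85) and ZKSCAN1 (0.85). Those most like ARRDC4 were HYKK (0.86), DDIT4L (0.86), PPP1R3B (0.85), GAREM1 (0.84) and VMAC (0.84). PPP1R3B, which targets a phosphatase to glycogen, was at 22.9 and 21.0 CPM in SP_12D R1 and R2 and 27.0 CPM in R3, with Control_3D at 24.9 to 28.8 CPM.

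Of 83 other genes listed for the pathway, 72 were expressed enough to be tested, and edgeR's quasi-likelihood test was used with Benjamini-Hochberg adjustment over all genes. At 3 h 17 were higher and 1 lower (25.0%), a total of 18 that was 10 when only both compared groups entered the fit. After 24 h of SP 16 rose and 7 fell (31.9%), after 3 days 25 rose and 20 fell (62.5%), and after 12 days 29 rose and 21 fell (69.4%), beside the shares of all genes given above. Their median log2 fold changes were 0.12, 0.09, 0.04 and 0.05, against medians over all genes of 0.0034, -0.0099, -0.02 and -0.0037. Without SP_12D R3 the split at 12 days was 31 and 22, and without Control_24H R3 the split at 24 h was 22 and 11. With the trend in GC content and exon length removed, the splits were 14 and 2, 15 and 22, 21 and 27, and 24 and 28, so which direction held more genes depended on that choice from 24 h on.

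In the list of glucose uptake and glucose 6-phosphate, of 19 tested genes, 8 rose and none fell at 3 h, 6 rose and 1 fell at 24 h, and 10 rose and 3 fell at both 3 and 12 days. SLC2A4, the insulin-responsive transporter GLUT4, rose from 0.2 ± 0.057 CPM (SD, n = 3) to 6.67 ± 1.9 CPM at 3 h, and from 0.343 ± 0.12 to 8.62 ± 0.58 CPM at 3 days. Its log2 fold changes were 5.06, 4.82, 4.59 and 3.71 (edgeR adjusted p = 0.000234, 7.28e-05, 8.04e-08 and 1.15e-06). Control libraries held only 3 to 5 reads in hours and 4 to 10 in days, all below the low-count limit. SLC2A4 thus entered both fits through the SP libraries only. The 3 h call was lost with the replicate block in a fit of both groups (edgeR adjusted p = 0.118). SLC2A3 (GLUT3) rose by log2 1.30, 2.29, 3.43 and 3.71. HK2, a hexokinase that traps glucose as glucose 6-phosphate, rose by 1.13, 1.51, 1.21 and 1.99. HK2 was low, averaging 1.79 CPM in Control_3D, against 94.9 CPM for HK1 and 174 CPM for HKDC1. In SP_3D HK2, HK1 and HKDC1 averaged 4.16, 155 and 164 CPM. SLC2A1 (GLUT1), a transporter that TXNIP binds, had log2 fold changes of 0.31 and 0.40 in hours that did not pass (edgeR adjusted p = 0.209 and 0.0578) and rose by 0.44 and 0.48 at 3 and 12 days (0.00506 and 0.00231), the first not past the threshold with the GC content and length trend removed (edgeR adjusted p = 0.103).

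The list of the MAX and MLX network holds MAX and factors that pair with it. Of its 9 tested genes, 5 were higher at 3 h, 2 at 24 h, 3 at 3 days and 5 at 12 days. At 3 days 1 was lower, and at 12 days 2 were. MXI1, a MAX partner that opposes MYC, rose by log2 1.51, 0.92, 0.69 and 0.59, and MYCL by 2.01, 1.51, 1.01 and 0.63. MXD1 rose at 3 h from 5.29 ± 0.28 to 16.8 ± 1.7 CPM (edgeR adjusted p = 0.0017) and did not pass later. MAX itself rose by 0.60 at 3 h (edgeR adjusted p = 0.00608) and by 0.24 at 12 days, where it did not pass in 13 of 18 alternative fits.

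Among 15 tested carbohydrate response element targets, 2 rose and 1 fell at 3 h, 2 rose and 2 fell at 24 h, 7 rose and 6 fell at 3 days, and 7 rose and 5 fell at 12 days. The list thus split in both directions. FASN, fatty acid synthase, rose by log2 1.39 and 1.37 at 3 and 12 days, and PNPLA3, a lipid droplet enzyme, by 0.91, 1.12, 1.16 and 1.38, the 3 h call being lost without SP_3H R2 and with only both compared groups in the fit. BHLHE40, a circadian repressor, fell by 0.98 on the log2 scale at 3 h, 0.57 at 3 days and 0.21 at 12 days, the last not past the threshold in 5 of 18 alternative fits.

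In the thioredoxin system, which TXNIP binds, 0 of 10 genes passed at 3 h (0 at an unadjusted p under 0.05 in edgeR, and 0 adjusted and 1 unadjusted in DESeq2). In edgeR 1 rose and 3 fell at 24 h, 1 rose and 2 fell at 3 days, and 3 rose and 3 fell at 12 days. TXN (thioredoxin) fell by 0.65 on the log2 scale at 24 h, a call lost with the GC content and length trend removed (edgeR adjusted p = 0.435), and rose by 0.33 at 12 days, a call lost when any of 4 single libraries was left out. PRDX2, a peroxiredoxin, was low, with 5 to 7 reads a library in Control_3D and 5 to 15 in Control_24H. No Control_3D library was above the low-count limit, so PRDX2 entered the fit of days through the SP libraries only. It rose by 1.73, 2.03 and 1.66 at 24 h, 3 days and 12 days. Without SP_12D R3 the last had edgeR adjusted p = 0.0559. PRDX2 shares 247 bases with a gene on the opposite strand and 4 annotated pseudogenes carry its name, so its counts are less certain.

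Of the 9 α-arrestin relatives and ubiquitin ligase partners tested, 1 rose at 3 h and 4 at 24 h with none lower, and 1 rose and 4 fell at both 3 and 12 days. ARRDC2 fell by 0.75 and 0.91 and NEDD4 by 0.96 and 0.68 on the log2 scale at 3 and 12 days. ITCH, the ligase that marks TXNIP for degradation, passed at no time, with log2 fold changes between -0.01 and 0.17. Of the 10 energy-sensing genes, 1 rose at 3 h, 1 rose and 1 fell at 24 h, and 3 rose and 4 fell at both later times. DDIT4 in that list, an inhibitor of mTOR signalling, fell by 1.56 and 1.75 on the log2 scale at 3 and 12 days, from 389 ± 22 CPM to 132 ± 7.0 and 116 ± 13 CPM.

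**Figure D4:**
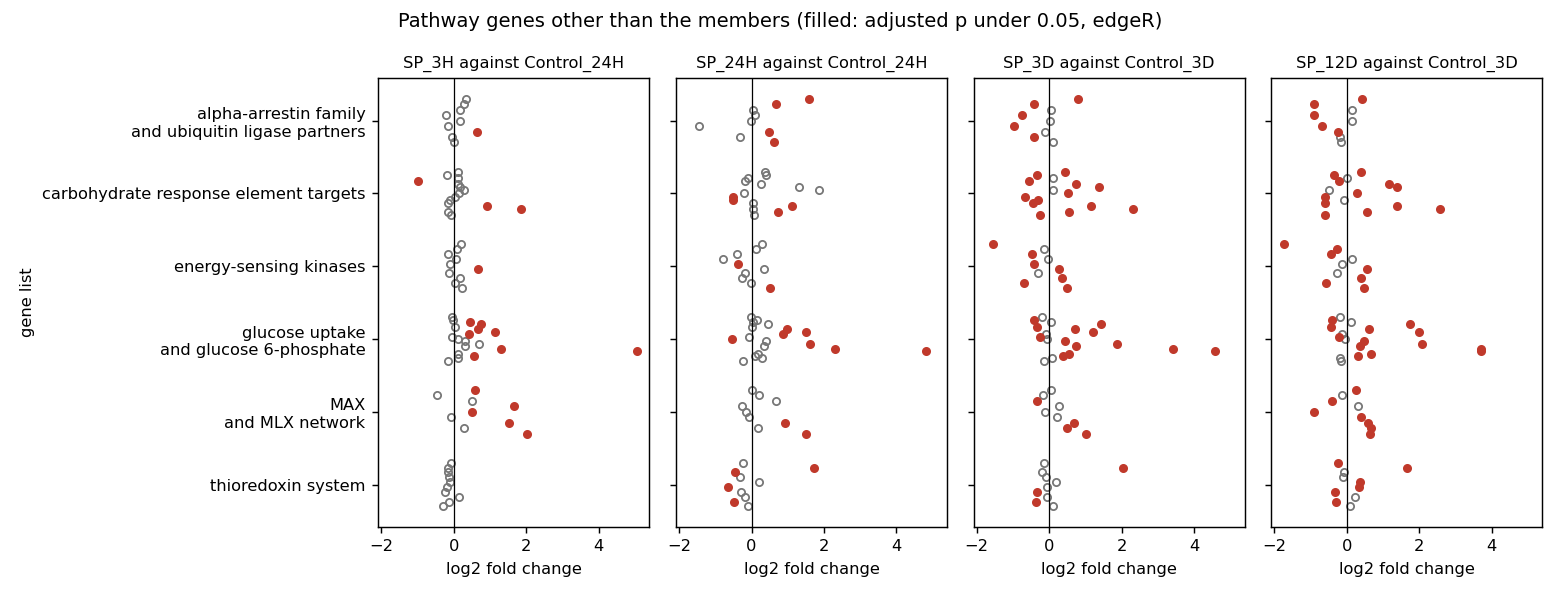
Log2 fold change of each tested pathway gene other than the members, by list and comparison, with filled red points past an adjusted p of 0.05 and open grey points not past it. SLC2A4 is the farthest point to the right at 3 h (5.06), and DDIT4 is the lowest filled point at 12 days (-1.75).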

How the data were processed

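RNA-seq libraries of A549 cells were analysed from the raw read counts per Ensembl gene that the authors deposited in 2 tables. Per the labels and the study's methods, total RNA was made into libraries with a NEBNext Ultra kit, aligned to GRCh38 with STAR 2.7.9a and counted with featureCounts; the strand setting is not given in the sources used here. Of 61541 identifiers, 61369 were matched to GENCODE v44. The members and gene lists were chosen with earlier results of these data known.

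Counts were analysed per table with edgeR 4.0.16 in R 4.3.3 (filterByExpr with a minimum count of 10, TMM factors, robust quasi-likelihood fit over all 9 libraries, adjusted p under 0.05), which left 17377 genes in hours and 17775 in days. The method was tested on simulated data for SP_3H and SP_3D only. These held no divergent library and no changed gene as low in the control as TXNIP and ARRDC4 in hours. The simulation therefore does not speak to those genes in hours or to SP_12D R3. CPM are TMM-scaled. Alternatives were DESeq2 1.42.0, other factors, filters, libraries and thresholds, a replicate block and, chosen after seeing the data, a correction for the dependence of a library's values on GC content and exon length. Residuals of Control_24H and SP_24H libraries with the same replicate number correlated at 0.50, 0.17 and 0.50, so these were treated as paired in the blocked fit. Others did not pair.

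Genes named are the members, up to 3 per list and comparison with the largest change among those past the threshold, and TXN, ITCH, MAX and SLC2A1; the patterns most like a member were ranked by the lower of the correlations in both tables among genes averaging 50 or more reads in each.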

Additional observations from a re-analysis of the deposited data

Results flagged for a closer look

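Differences between times are given for named genes in which every library of 1 SP group was above all of its controls and every library of another SP group below all of its own. The difference itself was not tested in any of them, and the tables of hours and days were scaled separately. No member met this criterion. ARRB2, a β-arrestin, was higher in hours and lower in days, and the log2 changes differed by 0.67 (3 h and 3 days), 1.18 (3 h and 12 days), 1.08 (24 h and 3 days) and 1.59 (24 h and 12 days). NEDD4L, a ubiquitin ligase, showed the same order, with differences of 0.76, 0.90, 0.60 and 0.74. DDIT4 was higher at 24 h and lower in days, by differences of 1.83 for 3 days and 2.03 for 12 days. Its control level was 106 to 126 CPM in Control_24H and 370 to 413 CPM in Control_3D. With SP it was 126 to 151 CPM in SP_24H, 126 to 140 CPM in SP_3D and 107 to 131 CPM in SP_12D. MXD3, a MAX partner, was higher at 3 h and lower in days, by differences of 0.62 for 3 days and 1.39 for 12 days. Its 3 h call was lost in 12 of 18 alternative fits. ARRB2 at 3 h, NEDD4L at 3 days, DDIT4 at 24 h and MXD3 at 3 days did not pass the adjusted threshold. These parts rest on library ranges alone, such as 82.4 CPM in SP_3H R3 against 80.2 CPM in Control_24H R2 for ARRB2. The ARRB2 call at 24 h was lost with the GC content and length trend removed. The share of all genes meeting this criterion was not computed. The controls of ARRB2 also differed, at 73.1 to 80.2 CPM in Control_24H and 117 to 137 CPM in Control_3D. Those of NEDD4L were at 45.8 to 54.8 and 67.6 to 69.3 CPM.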

How the results depend on the processing

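Pathway counts. Of 40 alternative counts that kept all replicates, 31 were within 1.5 times the reported one. At an adjusted p under 0.0001 with a fold change of at least 2, 0 genes remained at 3 h, 1 at 24 h, 8 at 3 days and 9 at 12 days, by construction of the threshold. With only both compared groups in the fit, 10 passed at 3 h. The replicate block in that fit gave 0 at 3 h (edgeR; 18 of 70 at an unadjusted p under 0.05, and 18 at the adjusted threshold with DESeq2 without a block), where same-numbered libraries did not pair, and 31 at 24 h, where they paired. The block changed no other count by over 1.5 times. The GC content and length correction, chosen after seeing the data, gave 37 at 24 h, and with the block 44 at 24 h and 7 at 3 h. The cause was not tested. Leaving out single libraries gave 12 to 17, 12 to 33, 39 to 49 and 42 to 53. At 24 h these were 14 without Control_24H R1, 12 without SP_24H R2 and 33 without Control_24H R3.

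Members. Of 206 values that kept all replicates, 193 moved by less than the spread between replicates. That limit was wide for TXNIP at 12 days, where SP_12D R3 widened the spread. Values there from -1.91 to -1.21 counted as unmoved. Fits that could not be made are not among the 206. The 13 values that moved further came from the GC content and length correction, without and with the block. MLXIP was -0.0029 and 0.0062 at 3 days and -0.026 and -0.010 at 12 days, MLXIPL 2.61 and 2.60 at 24 h, 1.73 and 1.74 at 3 days and 1.38 (with the block) at 12 days, and MLX -0.29 and -0.28 at 24 h and -0.26 and -0.25 at 3 days. Over all genes, that correction shifted the median log2 fold change from -0.0099 to -0.13 at 24 h and from -0.02 to -0.12 at 3 days. It moved the higher and lower calls of all genes from 1285 and 714 to 1490 and 1554 at 3 h, from 2922 and 2087 to 2449 and 4198 at 24 h, from 4487 and 4147 to 3788 and 5910 at 3 days, and from 4692 and 4166 to 4019 and 5700 at 12 days. Leaving out single libraries moved TXNIP between 1.32 and 2.90 at 3 h and between -3.14 and -0.76 at 12 days, ARRDC4 between 1.24 and 1.78 at 3 h and between 0.63 and 1.22 at 24 h, ARRDC3 between -0.75 and -0.16 and MLXIPL between 1.37 and 1.97 at 12 days. In hours, TXNIP and ARRDC4 could not be fitted with a minimum count of 50, and TXNIP in fits of only both compared groups, as they were below the filter. Among the pathway genes, STK11 (LKB1) reversed, from higher to -0.36 and -0.36 at 24 h, -0.15 and -0.16 at 3 days and -0.029 and -0.025 at 12 days under that correction without and with the block.

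With under 25 reads in most libraries of hours, differences of TXNIP and ARRDC4 there rest on few molecules.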
